A study of Mus musculus with 2 samples.

Results

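The CC chemokine ligands of dorsal root ganglion (DRG) macrophages were taken as 9 genes, Ccl2, Ccl3, Ccl4, Ccl6, Ccl7, Ccl8, Ccl9, Ccl12 and Ccl24, of the 16819 gene symbols measured by scRNA-seq. All 9 were detected, and they are 9 of the 17 Ccl symbols in the matrix. CC chemokines are small secreted proteins with adjacent cysteines that bind G protein-coupled receptors on leukocytes and set the direction of their migration. Tissue macrophages are a main source of them, and in sensory ganglia ligands of this family are known for drawing in monocytes after nerve injury and for acting on neurons that sense pain. The 9 fall into monocyte chemoattractants (Ccl2, Ccl7, Ccl8 and Ccl12), the macrophage inflammatory proteins Ccl3 and Ccl4, the rodent ligands Ccl6 and Ccl9, and the eotaxin-type Ccl24.

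CD45+ cells were sorted from pooled cervical, thoracic and lumbar DRGs of naive, wild-type BALB/cAnNRj mice after perfusion and enzymatic digestion at body temperature. Hashtag antibodies marked the cells of 3 male and 3 female mice, which shared a single lane of the 10x 3′ assay. The filtered matrix held the 2668 cells of the male mice (481, 772 and 1415 cells of mouse 1, 2 and 3), and the larger matrix gave 1073 further cells of the female mice (382, 313 and 378). All values below are from the male mice unless the female mice are named. Male cells carried 549 to 37058 UMIs (unique molecular identifiers, each a captured transcript), with a median of 8283.5. Levels are CPM, the UMIs of a gene per 1000000 UMIs of all cells of a mouse and group. Each mouse gave 1 sum per group, so n = 3 mice of 1 experiment, and no cell is a replicate.

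Cells were grouped by UMIs of genes that are not chemokines. Macrophages had at least 0.5% of their UMIs from C1qa, C1qb and C1qc, neutrophils at least 5% from S100a8 and S100a9, B cells at least 4 UMIs of Cd79a and Cd79b, and T cells at least 2 of Cd3d, Cd3e and Cd3g. This gave 1442 macrophages, 272 neutrophils, 161 B cells and 76 T cells, while 327 cells met several rules and 390 met none. Of 5 markers per type outside these rules, all 5 were highest in their own type for each of the 4. Among the 390 cells, 131 carried monocyte markers, 67 dendritic cell markers and 29 NK cell markers, and they are called monocyte-like, dendritic-like and NK-like. A further 160 stayed unnamed, and 3 carried basophil or mast cell markers. These last, from 2 mice, were left out of the comparisons of types, as were the unnamed cells. Macrophages were then divided by whether a UMI of Fcrls and of Ccr2 was found, the pair of transcripts that mark the main macrophage subsets in the study. This gave 655 Fcrls+Ccr2- cells, 567 with both, 154 Fcrls-Ccr2+ cells and 66 with neither. The study drew its subsets by clustering. The subsets compared below are the groups by UMIs and not those clusters. Macrophages expressed Csf1r, the receptor for macrophage growth factor, at 1047 CPM over all mice, against 40.3 CPM in neutrophils.

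In GENCODE M21 (GRCm38) 8 of the 9 genes lie on chromosome 11 in 2 groups, and Ccl24 lies on chromosome 5 (chr5:135569937-135573049, minus strand). The monocyte chemoattractants stand in the order Ccl2 (chr11:82035571-82037453), Ccl7 (chr11:82045712-82047525), Ccl12 (chr11:82101845-82103400) and Ccl8 (chr11:82115185-82116799), all on the plus strand. After a gap of 1456119 bp follow Ccl9 (chr11:83572919-83578636), Ccl6 (chr11:83587882-83593087) and Ccl3 (chr11:83647844-83649355) on the minus strand and Ccl4 (chr11:83662584-83664683) on the plus strand. Ccl2 overlaps an antisense gene, Gm17268, which had 0 UMIs in male macrophages. Ccl6 overlaps E230016K23Rik on the opposite strand, so reads of these genes can be told apart only by strand.

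RefSeq promoters (GRCm38.p6, 250 bases before to 50 after the start, read along the gene's strand) were at hand for 5 of the 9, Ccl3, Ccl6, Ccl8, Ccl9 and Ccl12. Those of Ccl8 and Ccl12 are shown because both genes were higher in Fcrls+Ccr2- macrophages, and those of Ccl6 and Ccl9 because these genes were not. They lie at chr11:82114935-82115234 (Ccl8, plus), chr11:82101595-82101894 (Ccl12, plus), chr11:83593038-83593337 (Ccl6, minus) and chr11:83578587-83578886 (Ccl9, minus). Capitals mark letters found by the motif search.
Ccl8: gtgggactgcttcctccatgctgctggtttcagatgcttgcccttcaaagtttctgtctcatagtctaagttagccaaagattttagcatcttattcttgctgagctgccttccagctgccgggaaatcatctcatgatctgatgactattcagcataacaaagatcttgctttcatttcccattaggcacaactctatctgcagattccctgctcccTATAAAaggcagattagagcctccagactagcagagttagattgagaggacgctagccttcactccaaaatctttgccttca
Ccl12: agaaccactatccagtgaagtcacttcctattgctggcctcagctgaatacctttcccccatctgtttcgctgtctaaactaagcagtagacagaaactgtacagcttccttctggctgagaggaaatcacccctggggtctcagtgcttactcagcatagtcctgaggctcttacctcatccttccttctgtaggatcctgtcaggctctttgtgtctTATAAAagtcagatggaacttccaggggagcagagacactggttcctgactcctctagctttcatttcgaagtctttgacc
Ccl6: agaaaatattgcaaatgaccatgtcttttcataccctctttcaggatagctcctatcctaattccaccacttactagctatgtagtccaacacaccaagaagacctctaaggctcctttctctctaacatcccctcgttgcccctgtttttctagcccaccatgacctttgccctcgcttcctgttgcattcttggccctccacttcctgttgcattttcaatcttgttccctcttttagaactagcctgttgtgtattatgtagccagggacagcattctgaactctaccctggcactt
Ccl9: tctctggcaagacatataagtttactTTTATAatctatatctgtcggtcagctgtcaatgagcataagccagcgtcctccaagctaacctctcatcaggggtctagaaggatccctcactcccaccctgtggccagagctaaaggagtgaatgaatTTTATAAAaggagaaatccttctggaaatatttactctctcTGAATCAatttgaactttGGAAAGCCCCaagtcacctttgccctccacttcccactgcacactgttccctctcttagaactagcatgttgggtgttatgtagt
The motifs searched on both strands were the NF-kB motif (in 1.63% of 32851 promoters of this length), TGANTCA for AP-1 (7.81%), the interferon response element (3.44%), TTCNNNGAA for STAT factors (8.30%), TTGCNNAA for C/EBP (10.8%), GAGGAAGT for PU.1 (3.20%) and TATAAA (13.6%). The last was added after the sequences had been read. TATAAA stood at -32 in Ccl8 and at -31 in Ccl12, counted from the start of the gene. Ccl9 held the NF-kB motif at -35, the AP-1 letters at -53, and TATAAA at -224, -94 and -92, of which the last pair overlap. Ccl6 and Ccl3 matched none of the 7. These are matches of letters within a window, and no binding was measured.

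The 9 ligands together made up 0.964% ± 0.0755 of the UMIs of macrophages (SD, n = 3 mice), with 0.884%, 0.973% and 1.03% in mouse 1, 2 and 3. The share was 0.222% ± 0.0147 in neutrophils, 0.0165% ± 0.00345 in B cells and 0.0333% ± 0.0142 in T cells. Monocyte-like cells had 0.196% ± 0.0209, dendritic-like cells 0.130% ± 0.0451 and NK-like cells 0.190% ± 0.089. The makeup differed between these types. Ccl6 and Ccl9 made up 0.185% of neutrophil UMIs and 0.124% of monocyte-like UMIs but 0.0584% of macrophage UMIs, whereas the monocyte chemoattractants made up 0.475% of macrophage UMIs and 0.0063% of neutrophil UMIs. The neutrophil shares leave out 286 cells that met the neutrophil rule and also the T cell rule. Ccl6 was at 429 CPM in those cells, and no share was drawn with them as neutrophils. In NK-like cells, Ccl3 and Ccl4 held 0.181% of UMIs.

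**Figure D1:**
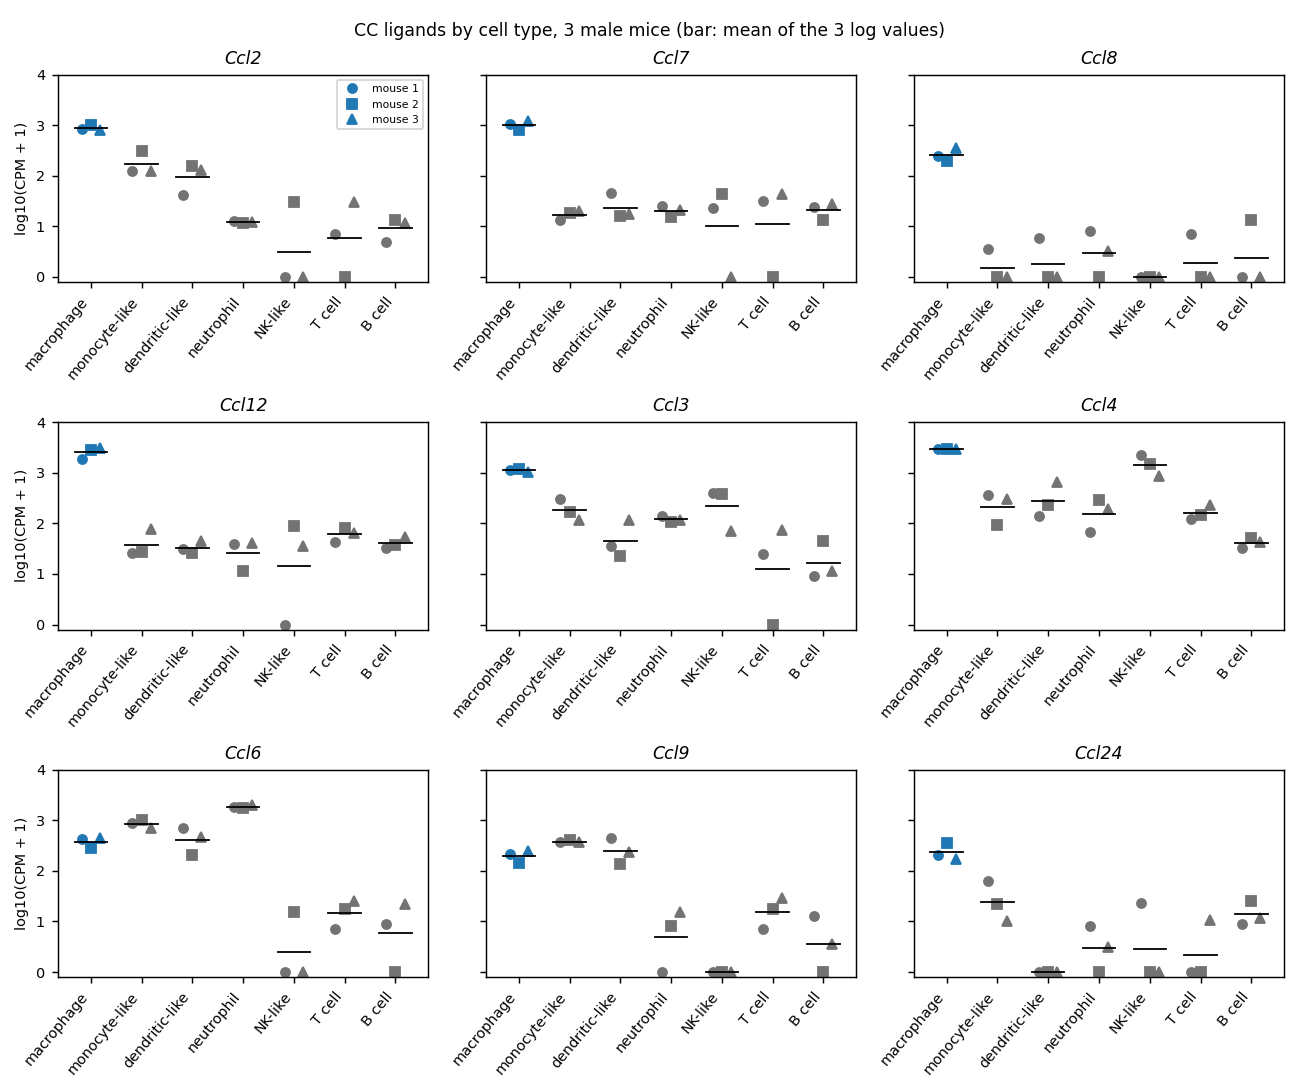
Level of each CC ligand by cell type, as log10(CPM + 1), in the 3 male mice (circle, square and triangle for mouse 1, 2 and 3, macrophages in blue, the bar at the mean of the 3 log values). Macrophages stand above each of the other 6 types plotted for Ccl2, Ccl3, Ccl4, Ccl7, Ccl8, Ccl12 and Ccl24. Neutrophils and monocyte-like cells stand above them for Ccl6, and monocyte-like cells for Ccl9. Dendritic-like cells overlap macrophages for Ccl6 and Ccl9, at higher means (463 against 382 CPM and 273 against 202 CPM). The 9 were listed as macrophage ligands, and this order was not drawn for all genes. The neutrophils leave out 286 cells that also met the T cell rule.

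Each cell type was compared with macrophages by edgeR's quasi-likelihood test over 5503 genes, with Benjamini-Hochberg adjustment, at an adjusted p of 0.05. Against neutrophils, 8 of 9 ligands were higher in macrophages and 1 (Ccl6) was lower, where 32.2% of all genes were higher and 27.9% lower (60.1% in either direction). Against B cells, all 9 were higher (30.5% of all genes, and 58% in either direction), and against T cells all 9 were higher (24.3%, and 44.8% in either direction). The median log2 fold change of the 9 was 5.30, 6.52 and 5.45 against neutrophils, B cells and T cells, and the median over all genes was 0.13, 0 and -0.03. The 3 comparisons share the macrophage sums. The 9 had been listed as ligands of macrophages, with earlier results of these data known. High counts were thus partly set in advance and do not test the list. All 27 calls stayed on their side of the threshold under each alternative. Of 10 immediate early genes, which also respond to tissue digestion, 9, 10 and 10 were higher in macrophages than in neutrophils, B cells and T cells. They held 1.59% of UMIs in macrophages, and 0.401%, 0.394% and 0.486% in those types. For 8 NF-kB response genes the shares were 3.27%, and 0.986%, 0.139% and 0.217%. The study reported signs of digestion-induced expression, particularly in macrophages. Its part in the ligand differences was not tested.

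Ccl2, a ligand of CCR2 that draws monocytes out of blood, measured 832, 1001 and 819 CPM in macrophages of mouse 1, 2 and 3 (884 ± 101). The next type was monocyte-like cells with 124, 309 and 124 CPM, followed by dendritic-like cells with 40.1, 156 and 128 CPM. The ranges of these latter types overlapped, and both lay below macrophages. Neutrophils, B cells, T cells and NK-like cells stood between 0 and 28.7 CPM. The log2 fold change over neutrophils was 5.92 (SE 0.29, adjusted p = 3.05e-12). A UMI of Ccl2 was found in 60.3% ± 1.3 of macrophages and in 3.7% of B cells.

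Ccl7 binds several CC receptors and, like Ccl2, attracts monocytes. It measured 1073, 813 and 1180 CPM in macrophages (1022 ± 189), and none of the other 6 types compared exceeded 45.1 CPM in any mouse. It was higher than in neutrophils by 5.30 on the log2 scale (SE 0.28, adjusted p = 6.32e-12), and 54.3% ± 4.35 of macrophages held a UMI. Below macrophages, the ranges of all neighbouring types in the order overlapped.

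Ccl12, a mouse monocyte chemoattractant of the CCR2 group, had 1825, 2800 and 3130 CPM in macrophages (2585 ± 679) and was found in 81.4% ± 3.86 of them. T cells followed with 61.9 ± 19.5 CPM, and B cells had 40.6 ± 11.2 CPM. The ranges of both overlapped those of their neighbours but not that of macrophages. Over neutrophils its log2 fold change was 5.91 (SE 0.31, adjusted p = 5.21e-12).

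Ccl8, which in mice acts through CCR8, had the lowest share of positive macrophages among the 9, with a UMI in 24.2% ± 10.5. Its level was 242, 194 and 354 CPM in macrophages (263 ± 81.8). In the other types it lay between 0 and 12.4 CPM, and 0 of 29 NK-like cells had a UMI, which allows a share of up to 10.3%. The log2 fold change over neutrophils was 5.98 (SE 0.47, adjusted p = 2.01e-09). Of the 4 monocyte chemoattractants, Ccl8 differed most among mice relative to its mean.

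Ccl3 and Ccl4 attract monocytes, T cells and NK cells, and Ccl3 binds CCR1. Ccl3 measured 1120, 1196 and 1046 CPM in macrophages (1121 ± 74.9), followed by NK-like cells with 398, 373 and 69.4 CPM and monocyte-like cells with 193 ± 92 CPM. Ccl4 measured 2901, 2952 and 2964 CPM in macrophages (2939 ± 33.6) and 2280, 1465 and 850 CPM in NK-like cells. The ranges of these did not overlap, nor did those of NK-like cells and dendritic-like cells (340 ± 274 CPM). The NK-like values rest on 7, 12 and 10 cells of mouse 1, 2 and 3. They held 18, 26 and 4 UMIs of Ccl3 and 103, 102 and 49 UMIs of Ccl4. T cells had 121, 147 and 229 CPM of Ccl4, above the 31.5 to 49.4 CPM of B cells in every mouse. The log2 fold change of macrophages over neutrophils was 2.87 for Ccl3 (SE 0.27, adjusted p = 2.77e-08) and 3.67 for Ccl4 (SE 0.32, adjusted p = 8.16e-09).

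Ccl6, a ligand of CCR1 that myeloid cells of rodents express at rest, was the exception. Neutrophils had 1790, 1759 and 1978 CPM (1843 ± 119), monocyte-like cells 876, 998 and 714 CPM, dendritic-like cells 716, 205 and 467 CPM, and macrophages 428, 278 and 439 CPM (382 ± 90). The neutrophils kept by the rules stood above all other types without overlap. Macrophages overlapped dendritic-like cells, and B cells, T cells and NK-like cells had at most 23.9 CPM. Ccl6 was 6.23-fold lower in macrophages than in neutrophils (log2 -2.64, SE 0.23, adjusted p = 7.11e-09). The test scaled the sums by TMM and the CPM values did not, so its fold is not the ratio of the CPM. The neutrophil group leaves out 286 cells that also met the T cell rule. In these cells Cd3d supplied 99.1% of the Cd3 UMIs, Trac was at 0 CPM against 353 CPM in T cells, and Ccl6 was at 429 CPM. That Ccl6 value lies below the monocyte-like ones, and the order over types was not drawn with these cells as neutrophils. With the rules applied in their listed order, an alternative chosen after seeing the data, the log2 difference was -1.92. That order takes all but 2 of the 286 cells as neutrophils. It also adds to the macrophages the cells that met the macrophage rule and a further one. With the rules of the main fit and cells thinned to 2000 UMIs, the log2 difference was -3.45.

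Ccl9, likewise a CCR1 ligand, was at 217, 143 and 246 CPM in macrophages (202 ± 53.2), at 369, 399 and 367 CPM in monocyte-like cells and at 451, 138 and 231 CPM in dendritic-like cells. The dendritic-like range overlapped both others, whereas the lowest monocyte-like value lay above the highest of macrophages. Neutrophils, in contrast to Ccl6, had only 0, 7.11 and 14.2 CPM of Ccl9. Macrophages were above neutrophils by 4.07 on the log2 scale (SE 0.41, adjusted p = 7.37e-08). Ccl9 was found in 0 of 29 NK-like cells.

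Ccl24, an eotaxin-type ligand of CCR3 on eosinophils, had 207, 349 and 169 CPM in macrophages (242 ± 94.6), where 48.9% ± 9.81 of cells held a UMI. Monocyte-like cells followed with 60.6, 21.4 and 9.15 CPM, and 0 of 67 dendritic-like cells had a UMI, which allows a share of up to 4.48%. Over neutrophils its log2 fold change was 5.87 (SE 0.52, adjusted p = 1.12e-08).

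Shares of cells with a UMI can include free RNA caught in droplets, which was not measured here. B cells, taken as a type that should lack most of these ligands, held a UMI of Ccl4 in 17.8% ± 1.89 of cells and of Ccl12 in 16.8% ± 5.15, at a median of 3410 UMIs per cell against 8581.5 in macrophages. Thinned to 2000 UMIs per cell, Ccl12 was found in 63.1% of macrophages and 7.41% of B cells, Ccl4 in 64.7% and 9.58%, Ccl2 in 41.4% and 2.69%, and Ccl8 in 14.3% and 0.855%. T cells held Ccl4 in 29.4% ± 5.21 of thinned cells and NK-like cells in 70.5% ± 20.0, both above B cells. In thinned neutrophils the shares of the 4 monocyte chemoattractants, 0.575% to 5.61%, were close to those of B cells, 0.855% to 7.41%.

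The subsets of macrophages carried different amounts of ligand. The 9 genes made up 1.15% ± 0.135 of the UMIs of Fcrls+Ccr2- macrophages, 0.836% ± 0.107 of those with both markers and 0.639% ± 0.0847 of Fcrls-Ccr2+ macrophages. For the monocyte chemoattractants alone these shares were 0.595%, 0.426% and 0.193%, while Ccl3 and Ccl4 made up 0.457%, 0.337% and 0.377%. Cells with neither marker had 0.903% ± 0.42. In that group mouse 1 had 13 cells and 8548 CPM of Ccl4, against 2440 and 1416 CPM in the others, and 1 cell held 46.1% of those UMIs.

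**Figure D2:**
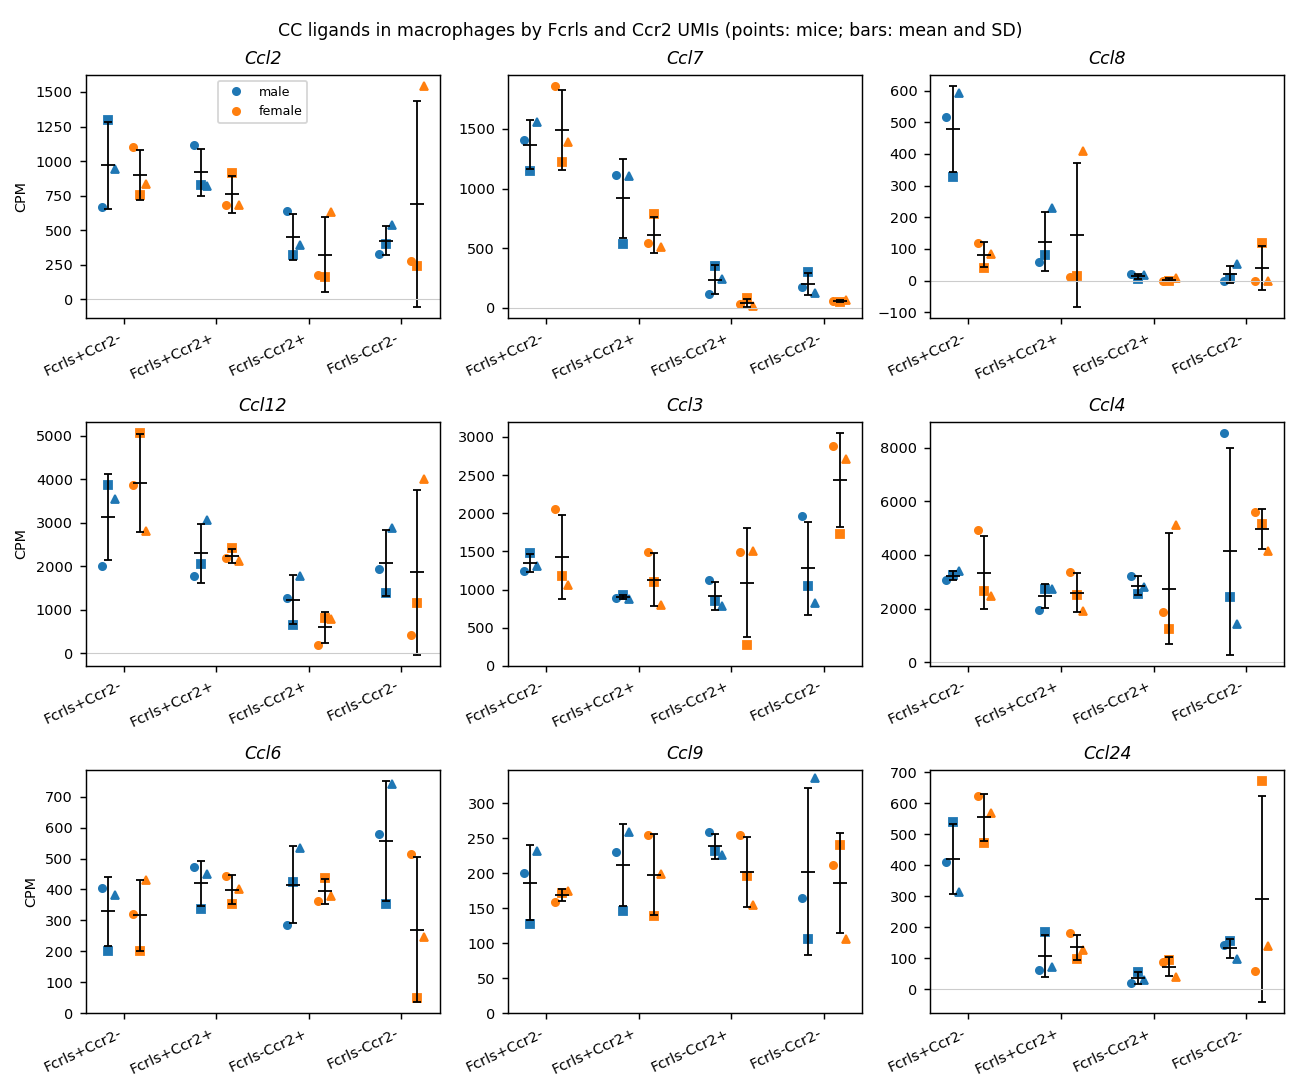
CPM of each ligand in macrophages grouped by whether a UMI of Fcrls and of Ccr2 was found, for male (blue) and female (orange) mice; circles, squares and triangles are mouse 1, 2 and 3 of a sex, bars the mean and SD. In male mice Ccl7, Ccl8 and Ccl24 stand higher in Fcrls+Ccr2- cells than in the other male groups, at means of 1368, 479 and 421 CPM against 238, 14.5 and 35.8 CPM in Fcrls-Ccr2+ cells, whereas Ccl4, Ccl6 and Ccl9 overlap between these groups.

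Between Fcrls+Ccr2- and Fcrls-Ccr2+ macrophages, 5 of 9 ligands were higher in the former and 0 lower, of 6410 genes tested, of which 3.17% were higher and 4.34% lower (7.5% in all). The median log2 fold change of the 9 was 1.05, and that of all genes was 0.02. From these same cells the study had reported Ccl7, Ccl8, Ccl12 and Ccl24 among the chemokines of its CD163+ macrophages. The count of ligands is therefore not independent of that report. Both groups had like depth, with medians of 8466 and 8024.5 UMIs per cell.

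Ccl8 had the largest difference of the 9. Fcrls+Ccr2- macrophages had 517, 327 and 592 CPM and Fcrls-Ccr2+ macrophages 21.2, 5.71 and 16.6 CPM, without overlap. The latter rest on 18 UMIs in 11 of 154 cells, against 2810 UMIs in the former, a ratio per UMI of 34.7 (exact 95% interval 21.9 to 58.6, counting error only). The log2 fold change was 4.96 (SE 0.54, adjusted p = 5.48e-06). In thinned cells a UMI was found in 22.5% ± 8.88 of the former and 2.22% ± 2.1 of the latter, the second value close to that of B cells.

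Ccl24 had 411, 539 and 314 CPM in Fcrls+Ccr2- macrophages and 21.2, 57.1 and 29 CPM in Fcrls-Ccr2+ macrophages, again without overlap. Its log2 fold change was 3.44 (SE 0.41, adjusted p = 1.81e-05), and 68.2% ± 10.6 against 9.75% ± 4.6 of cells held a UMI. Ccl7 had 1407, 1144 and 1554 CPM against 116, 354 and 243 CPM, with a log2 fold change of 2.35 (SE 0.29, adjusted p = 2.72e-05). For these genes and Ccl8 the call held under every alternative, including each mouse left out and cells regrouped after thinning.

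Ccl12 and Ccl2 differed less. Ccl12 had 2005, 3867 and 3536 CPM in Fcrls+Ccr2- macrophages and 1269, 643 and 1770 CPM in Fcrls-Ccr2+ macrophages (log2 1.24, SE 0.29, adjusted p = 0.00978). Ccl2 had 663, 1299 and 941 CPM against 640, 320 and 389 CPM (log2 1.05, SE 0.24, adjusted p = 0.00832), and in mouse 1 the values were nearly equal. Both calls rested on mouse 2. Without it, Ccl2 had a log2 fold change of 0.59 (adjusted p = 0.303) and Ccl12 of 0.73 (adjusted p = 0.167). With cells thinned and regrouped Ccl2 was at 0.51 (adjusted p = 0.432), and with the macrophage threshold at 1% Ccl12 was at 1.09 (adjusted p = 0.0547).

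The other 4 did not pass the main test, in which the sums of a mouse were not paired. Ccl3 had 1242, 1474 and 1313 CPM in Fcrls+Ccr2- macrophages and 1121, 848 and 778 CPM in Fcrls-Ccr2+ macrophages (log2 0.46, SE 0.20, adjusted p = 0.192). It passed with the mouse as a replicate block (log2 0.48, adjusted p = 0.0312), without mouse 1 (0.66, adjusted p = 0.027) and without a filter on low counts (0.53, adjusted p = 0.00485). Ccl4 had 3051, 3238 and 3389 against 3231, 2530 and 2796 CPM, which overlap (log2 0.07, SE 0.35, adjusted p = 0.973). Ccl6 (403, 202 and 383 against 286, 425 and 535 CPM) and Ccl9 (200, 127 and 231 against 259, 231 and 225 CPM) overlapped between groups, with log2 values of -0.51 (SE 0.25, adjusted p = 0.275) and -0.46 (SE 0.26, adjusted p = 0.382). With the replicate block, Ccl6 was lower in Fcrls+Ccr2- macrophages (log2 -0.57, adjusted p = 0.031).

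**Figure D3:**
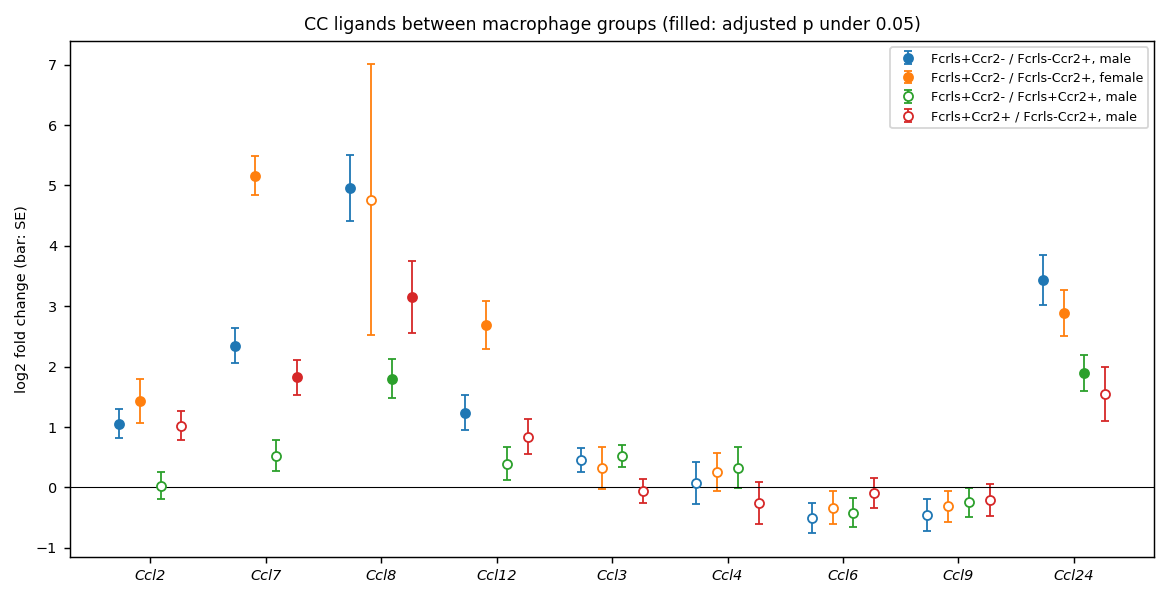
Log2 fold change and SE of each ligand between macrophage groups, in 4 comparisons (n = 3 mice of a sex); filled points have an adjusted p under 0.05 in edgeR's quasi-likelihood test. Ccl8, Ccl24 and Ccl7 reach 4.96, 3.44 and 2.35 in male mice, while Ccl4, Ccl6 and Ccl9 stay within 0.51 of 0 in all 4.

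Macrophages with both markers were compared with each of the others. Against them, Fcrls+Ccr2- macrophages had higher Ccl24 and Ccl8 (2 of 9, where 0.437% of all genes were higher and 0.874% changed either way), and no ligand was lower. Ccl24 was at 63.9, 186 and 73.1 CPM in cells with both markers (log2 1.89, SE 0.30, adjusted p = 0.00164) and Ccl8 at 58.1, 81.9 and 229 CPM (log2 1.80, SE 0.32, adjusted p = 0.00503). In mouse 2, 1 cell held 57.6% of the Ccl8 UMIs of this group. Without mouse 1 both calls were lost, at log2 values of 1.69 for Ccl24 (adjusted p = 0.141) and 1.48 for Ccl8 (adjusted p = 0.198). With cells thinned and regrouped they were lost at 1.70 (adjusted p = 0.0973) and 1.16 (adjusted p = 0.293). DESeq2 called Ccl24 but not Ccl8 (log2 1.93, adjusted p = 0.128). With the replicate block, Ccl3 was called as well (log2 0.52, adjusted p = 0.0242), in a fit that called 258 genes in all. Without a filter on low counts Ccl3 and Ccl7 were called too, in a fit that called 182 genes in all.

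Compared with Fcrls-Ccr2+ macrophages, those with both markers had higher Ccl7 and Ccl8 (2 of 9, where 0.234% of all genes were higher, 0.187% lower and 0.421% changed either way). Ccl7 was at 1115, 533 and 1106 CPM in cells with both markers (log2 1.82, SE 0.29, adjusted p = 0.00387), and the log2 fold change of Ccl8 was 3.16 (SE 0.59, adjusted p = 0.0126). Without mouse 3 neither call held, at log2 values of 1.64 for Ccl7 (adjusted p = 0.0527) and 2.63 for Ccl8 (adjusted p = 0.0627). Thinned cells were regrouped by the marker UMIs left, so that cells changed groups. In mouse 3, those with both markers fell from 318 to 107, and Fcrls-Ccr2+ cells rose from 83 to 109. With thinned cells Ccl7 was at 0.15 (adjusted p = 0.982) and Ccl8 at 1.90 (adjusted p = 0.434), and without mouse 1 Ccl7 was at 1.41 (adjusted p = 0.164). With the replicate block, 5 ligands were called, adding Ccl2 (log2 1.03, adjusted p = 0.00941), Ccl12 (0.88, adjusted p = 0.0174) and Ccl24 (1.44, adjusted p = 0.00155). That fit called 111 genes in all, against 27 in the main fit. Ccl2 also passed without mouse 1 (1.15, adjusted p = 0.0287). Ccl2 in cells with both markers (1113, 826 and 817 CPM) lay within the range of Fcrls+Ccr2- cells, and Ccl7 lay below that range without passing the test (log2 0.52, adjusted p = 0.519).

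The levels were also followed over the number of Fcrls UMIs in a cell, as a description with no test. Across 220 macrophages with 0, 375 with 1 to 3, 360 with 4 to 7 and 487 with 8 or more Fcrls UMIs, Ccl24 averaged 61.9, 103, 264 and 391 CPM and rose at each step in 3 of 3 mice. Ccl8 averaged 15.2, 114, 117 and 541 CPM, and Ccl7 231, 806, 966 and 1460 CPM, each rising at every step in 2 of 3 mice. Ccl6 was at 455, 557, 400 and 255 CPM, so that its ratio of the last to the first bin was 0.56 ± 0.0675. Cells with more Fcrls UMIs were also deeper, with a median of 9800 UMIs in the last bin and 7819 in the first, and the part of depth was not tested.

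**Figure D4:**
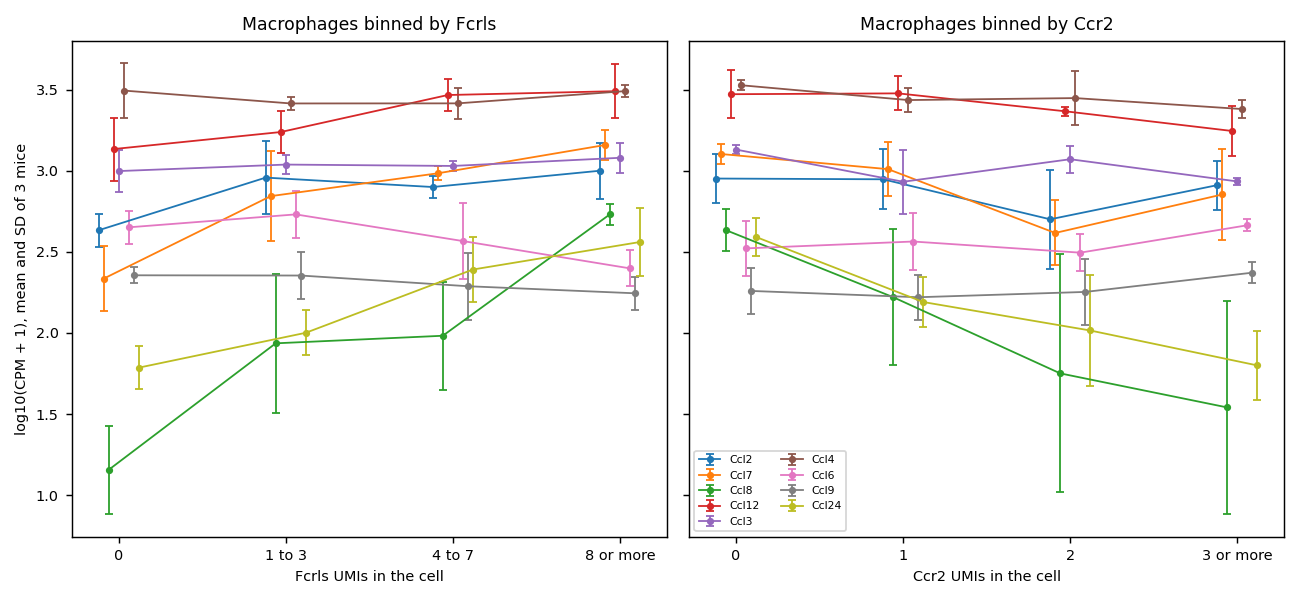
Level of each ligand as log10(CPM + 1), mean and SD of 3 male mice, in macrophages binned by Fcrls UMIs (left) and Ccr2 UMIs (right). Ccl8 and Ccl24 climb from 15.2 and 61.9 CPM to 541 and 391 CPM across the Fcrls bins and fall across the Ccr2 bins, whereas Ccl4 and Ccl9 change little.

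Over Ccr2 UMIs the order was turned. Ccl24 averaged 399, 161, 129 and 67.5 CPM in cells with 0, 1, 2 and 3 or more Ccr2 UMIs, and Ccl8 442, 223, 113 and 60.5 CPM. Ccl24 fell at each step in 2 of 3 mice and Ccl8 in 0 of 3, with SDs as large as 200 CPM in the middle bins, which held as few as 7 cells of a mouse. The ratio of the last to the first bin was 0.164 ± 0.0469 for Ccl24, 0.117 ± 0.106 for Ccl8 and 0.637 ± 0.0395 for Ccl3. For Ccl6 it was 1.45 ± 0.513 and for Ccl9 1.31 ± 0.242.

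Single macrophages expressed several ligands at once. Thinned to 2000 UMIs, a macrophage held UMIs of 3.66 ± 0.193 of the 9 (3.64, 3.48 and 3.86 in mouse 1, 2 and 3), 31.9% ± 2.63 of them held 5 or more, and 2.79% ± 0.611 held none. The mean was 3.99 in Fcrls+Ccr2- cells, 3.51 in those with both markers and 2.99 in Fcrls-Ccr2+ cells, with 3.81 to 4.20 against 2.80 to 3.14 over the mice of the first and last. Thinned neutrophils held 1.23, T cells 0.708 and B cells 0.334. UMIs were unevenly spread. The tenth of macrophages richest in a ligand held 50.1% ± 1.24 of all Ccl4 UMIs but 72.1% ± 6.15 of Ccl7 and 91.5% ± 7.55 of Ccl8. With all UMIs kept, the highest cell had 402 UMIs of Ccl12, whose median was 7, and 174 of Ccl8, whose median was 0.

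Co-detection was measured on 1412 thinned macrophages as the share of cells with both ligands over the product of the single shares, so that a ratio of 1 means no association. The ratio cannot exceed 1 over the larger single share. Pairs with Ccl4 (in 64.7% of cells) or Ccl12 (63.1%) therefore have a lower ceiling than Ccl8 (14.3%) with Ccl24 (24.7%). The order of ratios is thus not an order of strength of association. Over the 36 pairs the median was 1.08 ± 0.0334, and 15 pairs were above 1 and 4 below 1 in each of the 3 mice. With all UMIs these counts were 22 and 1. Pairs with no association can also fall on 1 side in all 3 mice, and the counts were not tested. Ccl8 with Ccl24 had the highest ratio, 2.08, 1.81 and 1.69 (1.86 ± 0.199). Ccl24 was found in 46.1% ± 17 of cells with Ccl8 and in 21.4% ± 9.17 of those without. Next came Ccl2 with Ccl7, with ratios of 1.43, 1.57 and 1.46 (1.49 ± 0.0705) and Ccl7 in 50.3% of cells with Ccl2 against 22.2% of those without. Ccl7 with Ccl8 followed at 1.41 ± 0.1.

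**Figure D5:**
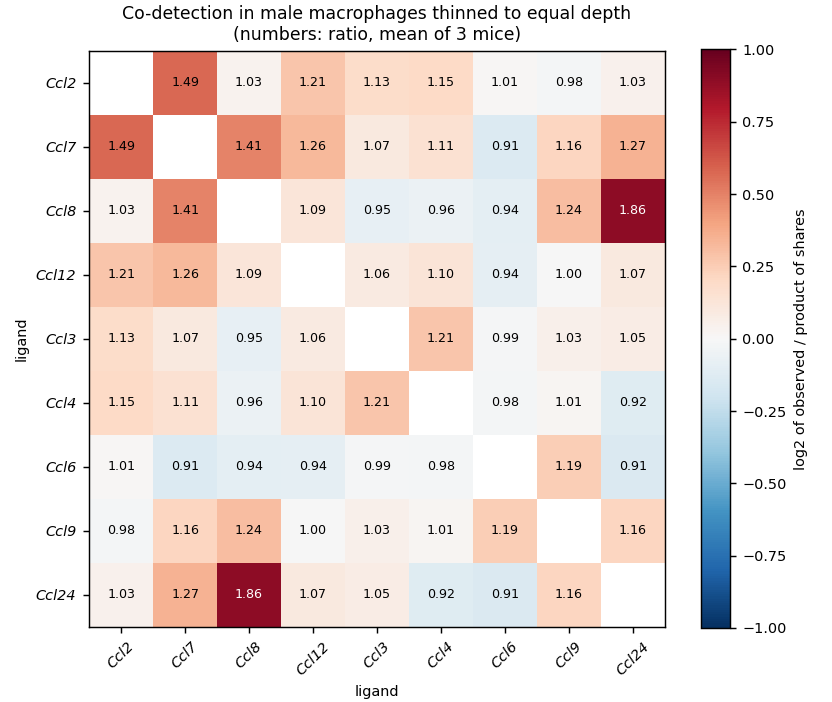
Co-detection of each pair of ligands in 1412 macrophages thinned to 2000 UMIs, printed as the ratio of observed to product of single shares (mean of 3 male mice) and coloured by its log2. Ccl8 with Ccl24 (1.86) and Ccl2 with Ccl7 (1.49) stand highest, and Ccl6 with Ccl24 and with Ccl7 (both 0.91) lowest. The ceiling of the ratio is lower for pairs with a ligand found in more cells.

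Pairs with ratios above 1 lay both within and between the gene groups. Ccl3 with Ccl4, neighbours on chromosome 11, had 1.21 ± 0.0353 (1.25, 1.19 and 1.19), and Ccl6 with Ccl9 had 1.19 ± 0.0788. Ccl2 with Ccl12 had 1.21 ± 0.012 and Ccl7 with Ccl12 1.26 ± 0.035, while Ccl24, on another chromosome, reached 1.27 ± 0.102 with Ccl7. Ccl6 with Ccl7 was below 1 in 3 of 3 mice (0.906, 0.88 and 0.938), as was Ccl4 with Ccl24 (0.921 ± 0.0539). Within 644 Fcrls+Ccr2- macrophages alone, an alternative chosen after seeing the data, Ccl8 with Ccl24 had 1.37 ± 0.0829, Ccl2 with Ccl7 1.47 ± 0.135 and Ccl3 with Ccl4 1.23 ± 0.0917. With all UMIs in all macrophages these were 1.39 ± 0.0726, 1.18 ± 0.0421 and 1.08 ± 0.028.

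The female mice gave 597 macrophages, of which 286 were Fcrls+Ccr2-, 230 had both markers and 54 were Fcrls-Ccr2+. In these mice Xist was at 495 to 526 CPM, and in the male mice at 0.236 to 2.12 CPM. Male and female macrophages were compared over 8064 genes with edgeR. 0 of 9 ligands passed (0.0868% of all genes did, 0.0372% higher and 0.0496% lower in male mice), 2 had an unadjusted p under 0.05 (460 of all genes did), and DESeq2 called 0. Those 2 were Ccl8 and Ccl24. Ccl8 had 242, 194 and 354 CPM in male and 57.8, 28.7 and 186 CPM in female macrophages, which do not overlap (log2 1.50, SE 0.39, adjusted p = 0.757). In female mouse 3, which had the highest female value, a single cell held 186 of the 299 Ccl8 UMIs (62.2%). Without this mouse the log2 fold change was 2.55 (adjusted p = 0.00235). Over the 6 mice left out in turn it ranged from 1.11 to 2.55 and passed only without female mouse 3. Ccl24 ran the other way, with 366, 284 and 368 CPM in female macrophages (log2 -0.50, SE 0.21, adjusted p = 0.837), which overlaps the male range. With each of the 6 mice left out it ranged from -0.89 to -0.26. Of these 6 fits Ccl24 passed only in that without male mouse 2, the male with the highest value (-0.89, adjusted p = 0.00504). In edgeR without a filter on low counts, Ccl24 (-0.48, adjusted p = 0.00437) and Ccl8 (1.53, adjusted p = 1.35e-31) both passed. That fit called 102 genes in all.

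Female mice also served as animals that the filtered matrix does not hold for the comparison of subsets. Of 4578 genes, 2.64% were higher and 2.86% lower in Fcrls+Ccr2- macrophages (5.5% in all), and of the 9 ligands 4 were higher, Ccl7, Ccl24, Ccl12 and Ccl2. Ccl7 had 1862, 1222 and 1388 CPM against 29.1, 83.9 and 15.5 CPM (log2 5.16, SE 0.32, adjusted p = 1.32e-11). Ccl24 had 623, 473 and 567 against 87.2, 93.2 and 38.6 CPM (log2 2.89, SE 0.38, adjusted p = 1.18e-05). Both were without overlap.

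Ccl12 had 3856, 5058 and 2811 CPM in female Fcrls+Ccr2- macrophages against 189, 820 and 788 CPM in Fcrls-Ccr2+ macrophages (log2 2.70, SE 0.40, adjusted p = 5.75e-05). Ccl2 had 1102, 756 and 837 against 174, 158 and 634 CPM (log2 1.43, SE 0.37, adjusted p = 0.0181), a call lost with DESeq2 (adjusted p = 0.19) and without female mouse 1 (log2 0.94, adjusted p = 0.337). Ccl8 was lower in depth here, with 119, 41.2 and 85.2 against 0, 0 and 7.73 CPM, from 185 UMIs against 1. The ratio of these counts per UMI was 31.8 (exact 95% interval 5.64 to 1263), and Ccl8 did not pass (log2 4.76, SE 2.24, adjusted p = 0.28) except with the mouse as replicate block (4.99, adjusted p = 0.0479), without female mouse 3 (7.88, adjusted p = 0.0148) or without a filter on low counts. Ccl3 (log2 0.32), Ccl4 (0.25), Ccl6 (-0.33) and Ccl9 (-0.31) did not pass, although Ccl4 did without female mouse 3 (1.23, adjusted p = 0.005). In that mouse 1 cell held 368 of the 662 Ccl4 UMIs of Fcrls-Ccr2+ macrophages.

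Whether the subset difference itself differed between the sexes was tested over 6151 genes. With edgeR 0 genes passed and with DESeq2 1, 262 had an unadjusted p under 0.05 in edgeR, and of the 9 ligands 2 did, Ccl7 and Ccl12. The male minus female difference of the log2 fold changes was -2.84 for Ccl7 (SE 0.51, adjusted p = 0.0565) and -1.48 for Ccl12 (SE 0.46, adjusted p = 1). For Ccl7 it passed in DESeq2 (-2.77, adjusted p = 0.00695) and with the replicate block (-2.81, adjusted p = 0.00298). Over the 6 mice left out in turn it ranged from -3.82 to -2.40, passing without male mouse 1 (adjusted p = 0.00362) or female mouse 2 (adjusted p = 0.00809). Without a filter on low counts Ccl7 and Ccl12 both passed, in a fit that called 20 genes in all. The female Fcrls-Ccr2+ values of Ccl7 rest on 15 UMIs, against 322 in the male mice. The highest cell of male mouse 1, 2 and 3 held 17 of 22, 54 of 124 and 77 of 176 of these UMIs. In the female mice it held 2 of 4, 4 of 9 and 1 of 2.

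Of 11 other CC ligands listed, 8 were in the matrix and together held 0.00387% ± 0.00351 of macrophage UMIs. Ccl5, a ligand that lymphocytes express, was the 1 that could be tested between types. It was lower in macrophages than in T cells (log2 -5.50, SE 0.62, adjusted p = 1.27e-06). Macrophages had more Ccl5 than neutrophils (4.87, SE 1.97, adjusted p = 0.0423) and B cells (8.15, SE 3.06, adjusted p = 0.0306), with wide errors. Between macrophage subsets Ccl5 did not pass (log2 -2.09, SE 0.86, adjusted p = 0.172).

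Of 14 listed CC receptor genes, 5 were tested between types and 3 between subsets, Ccr2 being left out of the latter count because it set the groups. Ccr1, which binds Ccl3, Ccl6 and Ccl9, was lower in macrophages than in neutrophils (log2 -2.26, SE 0.29, adjusted p = 1.9e-06) and higher than in B cells (6.12) and T cells (3.03). Ccr2 was higher than in neutrophils (log2 3.46) and B cells (6.53), and at 0.29 against T cells (adjusted p = 0.472). Ccrl2 was higher than in B cells (6.06) and T cells (4.43), and Ccr7 was lower than in both (log2 -7.29 and -5.55). Between Fcrls+Ccr2- and Fcrls-Ccr2+ macrophages Ccr1 was higher in the former (log2 1.62, SE 0.39, adjusted p = 0.0119), a difference that missed the threshold in female mice (1.24, adjusted p = 0.0645), and Ccrl2 was at 0.38 (adjusted p = 0.125). Ccr3, the receptor of Ccl24, had too few UMIs to be tested.

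Lists of other genes were set beside the same comparison. Of 6 subset genes (Cd163, Mrc1, Maf, Stab1, Igf1 and Gas6) all 6 were higher in Fcrls+Ccr2- macrophages, led by the growth factor Igf1 at a log2 of 3.17. Cd163 names a macrophage subset in the study, which had reported Cd163, Mrc1 and Maf as high in that subset of these cells. Their direction was thus known beforehand. Of 10 immediate early genes, which respond to stimulation and to tissue digestion within minutes, 5 were higher (Fos, Fosb, Jun, Atf3 and Rhob, log2 0.85 to 1.18) and 0 lower. They held 1.56%, 2.44% and 1.54% of UMIs in Fcrls+Ccr2- and 1.21%, 1.25% and 1.11% in Fcrls-Ccr2+ macrophages, and their part in the ligand differences was not tested. Of 8 NF-kB response genes, Cxcl1 was higher (log2 0.51) and Tnf lower (log2 -1.28), and of 7 interferon-regulated genes none passed in edgeR, also before adjustment, with a median log2 fold change of 0.02.

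Markers of cells outside the sort were low in macrophages. Glial markers held 0.00213% to 0.00388% of UMIs over the mice, endothelial markers 0.000131% to 0.000243%, fibroblast markers 0.00395% to 0.014% and neuronal markers 0.00638% to 0.00794%, with each listed gene above 0. Fibroblast markers held 0.0119% ± 0.00554 of the UMIs of Fcrls+Ccr2- and 0.00457% ± 0.00129 of Fcrls-Ccr2+ macrophages, and their part in the ligand values was not tested.

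Within macrophages, cells with a ligand were set against cells without it in each mouse, on thinned UMIs and as a description. The NF-kB response genes took a larger share of UMIs in cells with Ccl3 (ratio 1.38 ± 0.0314), Ccl4 (1.34 ± 0.096), Ccl12 (1.46 ± 0.175), Ccl7 (1.28 ± 0.0732) and Ccl2 (1.23 ± 0.0852), and a slightly larger one with Ccl9 (1.08 ± 0.0566), in 3 of 3 mice, but not with Ccl8 (0.947 ± 0.104) or Ccl6 (0.99 ± 0.127). In 3 of 3 mice the subset genes took a larger share in cells with Ccl24 (1.69 ± 0.225), Ccl8 (1.57 ± 0.315), Ccl7 (1.22 ± 0.128) and Ccl12 (1.16 ± 0.127), and a smaller share in cells with Ccl6 (0.856 ± 0.02), Ccl4 (0.918 ± 0.0814) and Ccl3 (0.954 ± 0.0296). Immediate early genes were lower in cells with Ccl6 (0.862 ± 0.0489) and Ccl9 (0.893 ± 0.0276) and higher in cells with Ccl3 (1.22 ± 0.0636), Ccl24 (1.17 ± 0.0905), Ccl12 (1.16 ± 0.197) and Ccl4 (1.14 ± 0.066), again in 3 of 3 mice. The interferon-regulated genes were lower with Ccl6 (0.644 ± 0.192) and Ccl9 (0.763 ± 0.0791) in 3 of 3 mice and mixed for the other ligands. These ratios were not tested, since a cell's UMIs are shared among its genes.

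By the pattern over 21 sums (3 mice, 4 macrophage groups, neutrophils, B cells and T cells), each ligand was correlated with 9719 genes on log2(CPM + 1), as a description across sums that share their mice. The sums mix macrophages with other types, so a high r can reflect that contrast alone. C1qc, named below, belongs to the macrophage rule, which sets its contrast between types in advance. Closest to Ccl2 were Pltp, Stab1 and Lgmn (Pearson's r = 0.98, 0.98 and 0.97), to Ccl7 were Ccl2, Pltp and Cltc (0.94, 0.94 and 0.93), to Ccl12 were Ctsb, Cttnbp2nl and C1qc (0.98, 0.98 and 0.97) and to Ccl8 were Chp2, Spic and Eps15 (0.88, 0.88 and 0.87). Ccl3 was most like Trf, Cd68 and Adam15 (0.99, 0.97 and 0.97), and Ccl4 like Atf3, Cmklr1 and Cyp27a1 (each 0.96). Ccl6 was most like Alox5ap, Lst1 and Cebpd (0.97, 0.96 and 0.96), Ccl9 like Cdkn1a, Cdk14 and Mrc1 (0.95, 0.94 and 0.94), and Ccl24 like Tpp1, Ms4a7 and Jun (0.94, 0.93 and 0.93).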

How the data were processed

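CD45+ DRG cells of 6 naive mice were read in a single 10x 3′ lane. The files deposited by the authors hold UMI counts with no scaling, in a matrix of 2668 cells that passed Seurat filters (200 to 5000 genes, under 5% mitochondrial) and demultiplexing, and in a larger matrix of 4395 barcodes with 6 hashtags. Their notes name Cell Ranger (3.1.0 in the matrix header), Seurat and mm10. The same filters and HTODemux (Seurat 5.3.0) were applied to the larger matrix, and the 2668 male cells found were those deposited. Each hashtag was taken as a mouse. All libraries shared a lane.

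Cells were grouped by the marker rules, and UMIs were summed per mouse and group (male macrophage sums of 1646259 to 7504746 UMIs). Sums were tested with edgeR 4.0.16 (quasi-likelihood, TMM, filterByExpr, Benjamini-Hochberg, R 4.3.3), checked on simulated data. Between Fcrls+Ccr2- and Fcrls-Ccr2+ macrophages, a simulated log2 change of 1 was recovered for 53.3% of changed genes (42.7% in female mice). A change of 2 was recovered for 93.3% (83.9% in female mice). Simulated sums were drawn independently, without the pairing by mouse, and the comparisons of the sexes were not simulated. Cell types shared 1 fit, as did the macrophage groups. Marker genes used for grouping stayed in the fits and in the adjustment of p. They are left out of the gene numbers and shares given for the tests, and their own differences are not reported. Sums of a mouse come from 1 animal and were therefore paired. Their mean correlations were 0.0494, 0.0922 and 0.181 between macrophage groups of mouse 1, 2 and 3 (0.0462, 0.0365 and 0.00217 between cell types). The mouse entered as a term only as an alternative, so the main tests did not use this pairing. Ligand calls that changed with the mouse as a term are given beside the results.

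All 9 ligands are named in each comparison. Other CC genes are named where past the threshold or a receptor of the ligands, and for each ligand the 3 genes most like it are named. The values of 1 receptor gene are not reported here. Members, lists and tests were chosen with earlier results of these data known. The motif list was changed after its first matches were seen (PU.1 added) and TATAAA was added later. Alternatives were RLE factors, library size only, DESeq2 1.42.0, no count filter, the replicate block, each mouse left out, Scrublet doublets left out (scanpy 1.11.5, 51 of 4395 barcodes, 10 of the 2668 cells), a 1% macrophage threshold, markers at 2 or more UMIs, rules in listed order, and cells thinned to 2000 UMIs (98 shallower cells left out). Macrophages thinned for the subset tests were regrouped by the Fcrls and Ccr2 UMIs left. Intervals and limits from counts of 0 (3 counts) cover counting error only.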

Additional observations from a re-analysis of the deposited data

How the results depend on the processing

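Against neutrophils, B cells and T cells, the 27 ligand calls kept their direction and their side of the threshold under each alternative. The number of all genes called moved from 3307 to 5379 (no filter) and 1534 (thinned) against neutrophils, from 3190 to 4798 and 1327 against B cells, and from 2467 to 1005 (thinned) against T cells. Thinning leaves fewer UMIs; the other causes were not tested.

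Between Fcrls+Ccr2- and Fcrls-Ccr2+ macrophages, 5 ligands and 481 genes were called, with 150 genes after thinning and, with a mouse left out, 3 to 6 ligands and 199 to 273 genes. Fcrls+Ccr2- against both markers gave 2 ligands and 56 genes, with 1 and 93 in DESeq2, 4 and 182 without a filter, 0 and 2 after thinning, 258 genes with the replicate block, and 0 to 2 and 20 to 50 with a mouse left out. Both markers against Fcrls-Ccr2+ gave 2 and 27, with 5 and 133 without a filter, 5 and 111 with the replicate block, 0 and 4 after thinning, and 0 to 2 and 6 to 19 with a mouse left out. Female subsets gave 252 genes, and 87 to 182 with a mouse left out. Male against female gave 0 and 7, with 2 and 102 without a filter and 0 to 1 and 5 to 70 with a mouse left out. The sex by subset difference gave 0 and 0, with 1 and 1 in DESeq2, 2 and 20 without a filter, 1 and 3 with the replicate block, and 0 to 1 and 0 to 2 with a mouse left out. The replicate block changed no other ligand call than those given beside the results.

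Directions turned only for differences that were not called in the report. With a mouse left out, Ccl4 ranged from -0.0202 to 0.193 between Fcrls+Ccr2- and Fcrls-Ccr2+ cells (-0.0055 with markers at 2 or more UMIs), Ccl2 from -0.32 to 0.39 against both markers, and Ccl3 from -0.137 to 0.0942 and Ccl6 from -0.355 to 0.0931 between both markers and Fcrls-Ccr2+. Male against female, Ccl7 ranged from -0.0424 to 0.183, Ccl12 from -0.291 to 0.0274, Ccl3 from -0.377 to 0.0962, Ccl4 from -0.18 to 0.228, Ccl6 from -0.0829 to 0.243 and Ccl9 from -0.0517 to 0.304. Female Ccl4 ranged from -0.36 to 1.23. In the sex by subset difference, Ccl2 ranged from -1.41 to 0.0852, Ccl8 from -4.21 to 1.01 (-0.0125 without a filter), Ccl3 from -0.34 to 0.41, Ccl4 from -1.19 to 0.39, Ccl6 from -0.548 to 0.0913 and Ccl9 from -0.466 to 0.0528. The cause was not tested. With all UMIs in place of thinned ones, the median co-detection ratio was 1.05 and ligands per cell 5.57. Counts are low in places: Ccl8 rests on 18 UMIs in male and 1 UMI in female Fcrls-Ccr2+ macrophages.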

Other observations

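The 286 cells that met both the neutrophil and the T cell rule carried Ccl6 at 429 CPM, within the range of macrophages and below the 1759 to 1978 CPM of the neutrophils kept in the comparison. The 160 cells left unnamed held Ccl3 at 1142, 800 and 171 CPM and Ccl4 at 1583, 2428 and 501 CPM in mouse 1, 2 and 3, with Ccl6 at 659, 479 and 516 CPM. They are given no name. The 3 cells with basophil or mast cell markers, 1 or more from each of mouse 2 and mouse 3, held Ccl2 at 1718 and 3214 CPM and Ccl7 at 344 and 292 CPM, from 21 and 3 UMIs in all. Ccl12 was found in 1 of these cells, with 70 UMIs.

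Female neutrophils had 1635, 1261 and 1071 CPM of Ccl6, all below the male values, and 0 UMIs of Ccl9 in 66 cells, which allows a share of up to 4.55%. Female T cells had 621, 269 and 326 CPM of Ccl4, all above the male values, and 0 of 52 held a UMI of Ccl8 or of Ccl24, which allows up to 5.77%. The sexes were not tested against each other in these types.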
